A study of Homo sapiens with 8 samples.

Results

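The genes described here are 36 genes of glycolysis, of glucose and lactate transport, of glycolytic control and of the response to low oxygen. They were chosen by gene symbol, and all 36 symbols had a row among the 58302 genes listed for each library. By role they are 17 glycolytic enzymes, 4 glucose and lactate transporters, 5 regulators (bifunctional phosphofructokinase/bisphosphatase enzymes and pyruvate dehydrogenase kinases) and 10 other genes known to rise in hypoxia. A mean of at least 1 FPKM (fragments per kilobase of transcript, scaled to library size) over the libraries was required for a test. This left 34 of the 36 genes, without CA9 and EGLN3, and 13899 genes in all.

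The cells were SK-Hep1, an established human line from a liver tumour, and poly(A)-selected RNA was sequenced. They were either mock control cells, labelled with a control genotype, or cells with ectopic SLC29A2, the gene of an equilibrative nucleoside transporter. Control treatment, sorafenib alone, dipyridamole alone and the combination were applied to either cell type, which made 8 conditions with 1 library each and no replicates. Sorafenib inhibits several kinases, and dipyridamole inhibits nucleoside uptake and cyclic nucleotide phosphodiesterases. Drug doses, treatment times, oxygen tension, the promoter driving SLC29A2 and whether the SLC29A2 cells were 1 clone or a pool are not stated. Both cell types were grown in the same medium, whose glucose content is not stated. SK-Hep1 is known as an endothelial-like line. Of 8 hepatocyte markers 1 reached a mean of 1 FPKM, with APOA1, APOB, TTR and FGB under 0.1 FPKM in every library, and of 7 endothelial markers 2 reached it, with KDR and TEK under 0.1 FPKM. Of 5 epithelial markers 3 reached it, of 5 mesenchymal markers 4 and of 5 leukocyte markers 1. Summed over its markers, the endothelial list held 42.84 to 80.46 FPKM per library. The epithelial list held 732.6 to 2781 FPKM and the mesenchymal list 976.2 to 1594 FPKM.

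Glycolysis splits glucose into pyruvate in the cytosol, and lactate dehydrogenase turns pyruvate into lactate, which leaves the cell through monocarboxylate transporters. Tumour cells commonly run this route at a high rate even when oxygen is present. In low oxygen, prolyl hydroxylases no longer mark the HIF alpha subunits for destruction. HIF then binds a short DNA element and raises glucose transporters, most glycolytic enzymes, the pyruvate dehydrogenase kinases that hold pyruvate back from mitochondria, and genes of mitophagy and collagen modification. MYC and other E-box factors act on many of the same promoters.

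Promoter windows from RefSeq on build GRCh38.p14, running from 250 bases before to 50 bases after a transcript start, were matched to 31 of the 36 genes, using the window listed first for each gene. BNIP3L, NDRG1, PFKFB2, SLC2A3 and SLC16A1 were not matched. The windows were searched on both strands for ACGTG and GCGTG, the core letters of the hypoxia response element, and for the E-box CACGTG, which contains ACGTG. Of the 31 windows 14 (45.2%) held ACGTG, 14 (45.2%) held GCGTG and 5 (16.1%) held CACGTG, and 22 (71.0%) held at least 1 of the cores. Over the first window of every gene in the table (27305) the shares were 21.6%, 36.3%, 7.4% and 48.4%. The core was found in 12 of 17 enzyme windows, 1 of 2 transporter windows, 3 of 4 regulator windows and 6 of 8 windows of the other hypoxia genes. Among genes that fell with dipyridamole (below) 5 of 8 windows held it, among those that rose 3 of 5, and among those not past the threshold 13 of 16. A match describes these letters and is not a measured binding site. The stretches shown belong to LDHA and PGK1, which both fell with dipyridamole and hold cores, and to SLC16A3, which fell with either drug and holds none. They run 5′ to 3′ on the plus strand, end before the first annotated exon that begins within the window, and carry the cores in capitals. They lie at chr11:18394313-18394387 (LDHA), chrX:78103998-78104173 (PGK1) and chr17:82228185-82228396 (SLC16A3).
LDHA: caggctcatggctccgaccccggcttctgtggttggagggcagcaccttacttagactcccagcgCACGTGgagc
PGK1: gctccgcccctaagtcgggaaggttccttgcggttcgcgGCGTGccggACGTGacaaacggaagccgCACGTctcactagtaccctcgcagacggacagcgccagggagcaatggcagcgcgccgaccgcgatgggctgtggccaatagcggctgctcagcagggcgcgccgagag
SLC16A3: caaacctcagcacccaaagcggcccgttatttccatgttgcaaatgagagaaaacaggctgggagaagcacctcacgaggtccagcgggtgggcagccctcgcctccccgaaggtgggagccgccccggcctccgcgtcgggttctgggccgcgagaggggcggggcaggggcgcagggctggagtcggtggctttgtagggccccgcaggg
The LDHA stretch holds 2 overlapping cores that together form an E-box, the PGK1 stretch holds 3 cores, and the SLC16A3 stretch holds 0.

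The libraries held 14.07 to 16.69 M reads, inferred from the steps of the deposited values, and 1 read in a transcript of 2 kb was worth 0.03 to 0.0355 FPKM. SLC29A2 itself was read at 7.808, 7.105, 7.587 and 7.74 FPKM in control cells and at 1477, 3040, 2054 and 2025 FPKM in SLC29A2 cells (control treatment, sorafenib, dipyridamole and both drugs), as labelled. The control-cell libraries given dipyridamole stood apart in composition: non-coding genes took 2.48% of their reads with dipyridamole alone and 2.68% with both drugs, against 1.60% to 1.93% in the other 6. Mitochondrial genes took 5.74% of reads in control cells given dipyridamole alone, 1.88% in control cells and 2.25% in SLC29A2 cells given both drugs, and 3.04% to 4.54% in the other 5, and the part of these shares in the results was not tested. Each drug effect below is the difference in log2(FPKM + 1), with minus without the drug, in a model of cell type, sorafenib and dipyridamole over the 8 libraries, which compresses the changes of low genes. Each effect rests on 4 pairs of libraries that differ in that factor alone. All adjusted p-values are from limma with Benjamini-Hochberg adjustment over the 13899 genes, and "rose" or "fell" is used of genes at an adjusted p under 0.05. With 1 library per condition these p-values measure only the spread among the 8 libraries, and in bulk RNA a change in the number of cells of a type and a change in RNA per cell cannot be told apart.

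Levels of the glycolytic enzymes differed widely, and their rank among all genes was not examined. In control cells with the control treatment the levels per length were 2488 FPKM for PKM (pyruvate kinase), 2279 for GAPDH, 1858 for ENO1 (enolase), 1437 for LDHA (the lactate dehydrogenase subunit favoured for making lactate) and 964.9 for LDHB (its partner subunit). The 17 enzymes summed to 12464 FPKM there and took 1.51% of all reads. Among the phosphofructokinases, PFKP made up 75.7% to 85.2% of the summed FPKM of PFKL, PFKM and PFKP over the libraries. HK1 made up 73.3% to 82.7% of HK1 plus HK2, and ALDOA 99.4% to 99.7% of ALDOA plus ALDOC. These are shares of message and do not show which enzyme carries a step. They also depend on the averaged transcript lengths behind FPKM, which were 1010 bases for PFKP, 2503 for PFKL and 1465 for PFKM. For HK1 and HK2 the lengths were 1932 and 3815 bases. ALDOC, the brain-type aldolase, lay between 1.289 and 3.041 FPKM.

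The lactate exporter SLC16A3 (MCT4) reached 548.9 FPKM and the glucose transporter SLC2A1 (GLUT1) 314.4 FPKM in control cells with the control treatment. The regulators lay between 2.004 FPKM (PDK3) and 43.68 FPKM (PFKFB3) in that library, and the tested hypoxia genes between 5.076 FPKM (ANKRD37) and 104.2 FPKM (BNIP3L). CA9, the carbonic anhydrase that is a widely used hypoxia marker, had 9, 0, 7 and 1 reads in control cells and 3, 0, 1 and 4 reads in SLC29A2 cells, in the order given above. CA9 overlaps ARHGEF39 on the opposite strand (mean 3.201 FPKM), and reads in the shared part cannot be told apart. EGLN3, a HIF prolyl hydroxylase, had 1 read in SLC29A2 cells given both drugs and 0 in the other 7 libraries. A count of 0 allows up to 3 reads, or 0.171 to 0.203 FPKM for EGLN3 in those 7 and 0.191 and 0.206 FPKM for CA9 in the sorafenib libraries, for counting error only. No comparison was made for either gene.

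**Figure D1:**
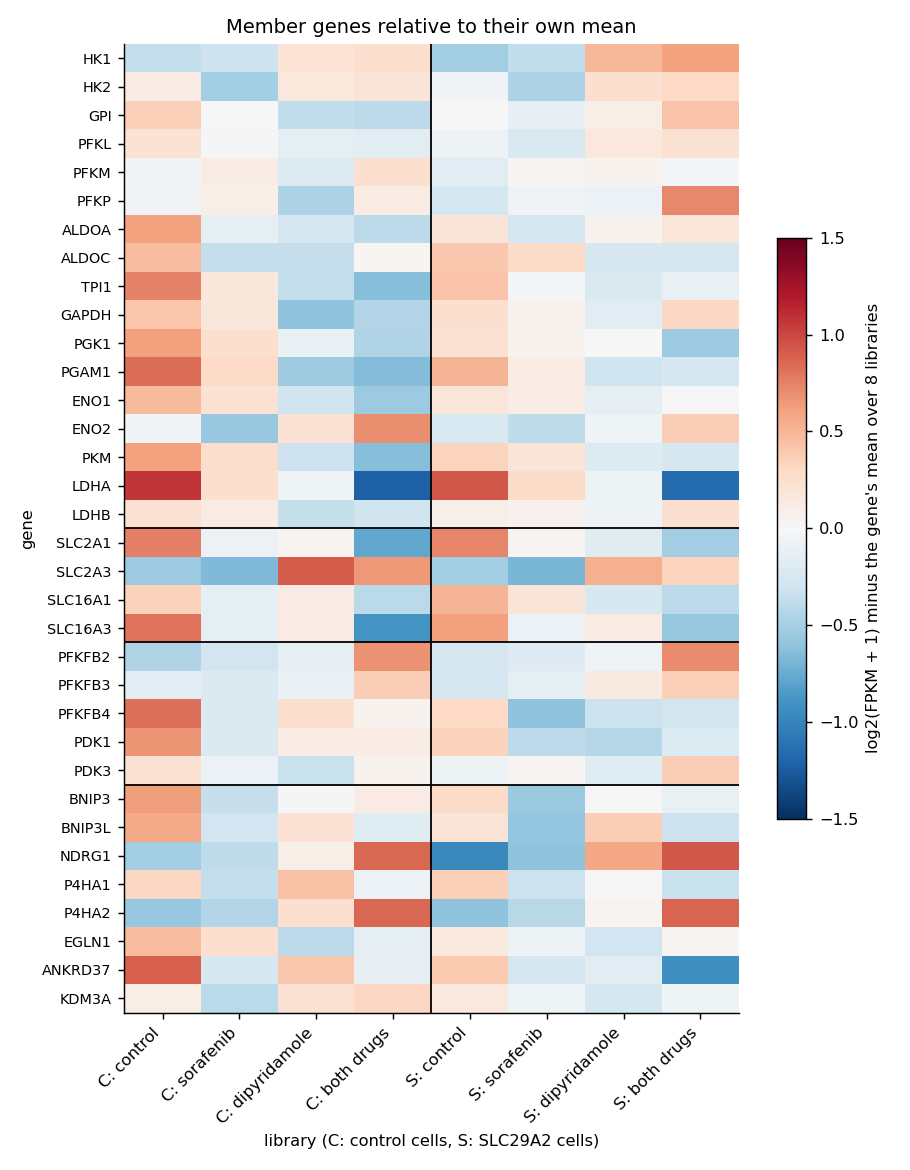
Level of the 34 tested genes in each of the 8 libraries (columns; C, control cells; S, SLC29A2 cells), as log2(FPKM + 1) minus the gene's mean over the libraries (colour, red above and blue below). Horizontal lines part enzymes, transporters, regulators and other hypoxia genes. LDHA, SLC2A1 and SLC16A3 are highest with the control treatment and lowest with both drugs in both cell types, whereas NDRG1 and P4HA2 run the other way.

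Sorafenib lowered 6 of the 34 tested genes and raised 0. Over all genes tested 8.11% passed the threshold, 2.17% as lower and 5.94% as higher, and among these 34 genes 17.6% passed as lower. The median difference was -0.165 against 0.089 over all genes, with 22 of 34 below 0. By role, 1 of 17 enzymes, 2 of 4 transporters, 0 of 5 regulators and 3 of 8 other hypoxia genes fell. At an unadjusted p under 0.05 there were 14 of the 34 genes, against 3702 of the 13899 genes tested. Voom on the recovered reads called 6 of the 34, against 1633 of 13874 genes.

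LDHA (ENSG00000134333; GRCh38 chromosome 11, 18394388 to 18408425, plus strand) was the only one of the 17 enzymes to pass. It was read at 1437 FPKM with the control treatment and 812.2 with sorafenib in control cells, and at 1303 and 828.2 in SLC29A2 cells. With dipyridamole already present it went from 656.9 to 292.2 FPKM when sorafenib was added in control cells, and from 647.7 to 306.8 in SLC29A2 cells. All 4 pairs were lower with sorafenib, with nearly the same values in both cell types, while the ranges with and without sorafenib overlapped because dipyridamole moved LDHA as well. The effect was -0.93 ± 0.13 (SE, 4 library pairs from -1.17 to -0.65; limma adjusted p = 0.00625), or 1.90-fold on that scale, and it passed without any single library (adjusted p at most 0.0355). LDHB differed by 0.06 ± 0.15 (adjusted p = 0.832), a sign that turned when libraries were rescaled by size factors.

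The transporters SLC16A3 (chromosome 17, 82228397 to 82261129, plus strand), which exports lactate, and SLC2A1 (chromosome 1, 42925375 to 42959176, minus strand), which imports glucose, also fell. SLC16A3 dropped from 548.9 to 284.2 FPKM in control cells and from 476.8 to 292.9 in SLC29A2 cells, and with dipyridamole present from 338.3 to 166.7 and from 340.2 to 210 FPKM. Its effect was -0.84 ± 0.12 (limma adjusted p = 0.00623). SLC2A1 went from 314.4 to 173.8 and from 309.1 to 191.2 FPKM, and with dipyridamole from 189.8 to 107.2 and from 163.6 to 128.3 FPKM. Every pair was lower for both genes, and for SLC2A1 the smallest step was that in SLC29A2 cells given dipyridamole. The effect on SLC2A1 was -0.68 ± 0.11 (limma adjusted p = 0.0124), and the call was lost without the control-cell library given both drugs (adjusted p = 0.0563). SLC16A3 shares exonic sequence on the opposite strand with CSNK1D (mean 235.4 FPKM), and no strand-specific counting is stated, so reads in the shared part cannot be told apart. The other transporters did not pass: SLC16A1 (MCT1) differed by -0.37 ± 0.12 (adjusted p = 0.0968; 0.0447 with size factors) and SLC2A3 (GLUT3) by -0.19 ± 0.11 (adjusted p = 0.292), with all 4 pairs below 0 for each.

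Of the hypoxia genes, BNIP3L, a mitophagy receptor of the outer mitochondrial membrane, was read at 104.2 and 57.04 FPKM without and with sorafenib in control cells and at 80.02 and 46.21 in SLC29A2 cells. With dipyridamole the values were 81.4 and 61.25 FPKM in control cells and 90.47 and 56.1 in SLC29A2 cells. The 4 libraries with sorafenib all lay below the 4 without it. The effect was -0.68 ± 0.12 (limma adjusted p = 0.015; 0.0607 without the SLC29A2 library given dipyridamole).

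P4HA1, a catalytic subunit of the collagen prolyl hydroxylase, fell by 0.55 on the log2 scale (SE 0.13; limma adjusted p = 0.0343), with values of 19.64 and 11.98 FPKM in control cells and 20.26 and 12.33 FPKM in SLC29A2 cells without dipyridamole. With it the values were 21.58 and 14.7 FPKM and 15.68 and 12.22 FPKM. ANKRD37, a small ankyrin-repeat gene known as a HIF target, fell by 0.77 (SE 0.18; limma adjusted p = 0.0343), from 5.076 to 1.759 FPKM in control cells and from 3.258 to 1.73 FPKM in SLC29A2 cells, and with dipyridamole from 3.308 to 1.993 and from 1.916 to 0.7234 FPKM. Both genes were lower in every pair, but each call was lost in 7 of the 8 fits that left out a library, with an adjusted p of up to 0.118 for P4HA1 and 0.106 for ANKRD37. ANKRD37 had few reads, from 71 in control cells with the control treatment down to 10 in SLC29A2 cells given both drugs. It also overlaps UFSP2 on the opposite strand (mean 10.62 FPKM).

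The remaining enzymes and regulators did not pass with sorafenib, and the enzymes among them ranged from -0.36 to 0.43. P4HA2, one of the other hypoxia genes, did not pass either (0.44 ± 0.13, limma adjusted p = 0.0728). The nearest of the enzymes and regulators were PGK1, phosphoglycerate kinase (-0.36 ± 0.11, limma adjusted p = 0.0848), and PFKFB2 (0.45 ± 0.14, 0.0867). PFKFB2 is a bifunctional enzyme that sets the level of an activator of phosphofructokinase. PFKFB4, of the same family, PDK1, a pyruvate dehydrogenase kinase, and BNIP3, the paralog of BNIP3L, differed mainly in the absence of dipyridamole. PFKFB4 went from 18.64 to 8.562 FPKM with sorafenib in control cells and from 12.62 to 6.301 in SLC29A2 cells, but from 12.09 to 10.53 and from 7.894 to 8.15 FPKM when dipyridamole was present. PDK1 went from 12.9 to 6.581 and from 10.21 to 5.72 FPKM without dipyridamole, and from 8.511 to 8.53 and from 5.559 to 6.658 FPKM with it. PDK1 overlaps the antisense gene AC078883.1 on the opposite strand (mean 5.278 FPKM), and reads in the shared part cannot be told apart. BNIP3 went from 71.24 to 35.67 and from 56.14 to 30.71 FPKM, against 45.22 to 49.89 and 45.84 to 42.39 FPKM with dipyridamole. In all 3 genes the sorafenib libraries were clearly lower only where dipyridamole was absent, in both cell types.

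The sorafenib by dipyridamole interaction tests that difference directly. It was 0.90 ± 0.20 for PFKFB4 (limma adjusted p = 0.209), 0.92 ± 0.22 for PDK1 (adjusted p = 0.22) and 0.93 ± 0.18 for BNIP3 (adjusted p = 0.185), so none passed. Over all genes 0.0863% passed this test, and 0 of the 34 did. Of the 34, 7 had an unadjusted p under 0.05, against 1839 of the 13899 genes tested. The interaction was above 0 in 29 of 34 genes, at a median of 0.356 against 0.105 over all genes. With libraries rescaled by size factors it was above 0 in 26, at a median of 0.243 against 0.002.

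**Figure D2:**
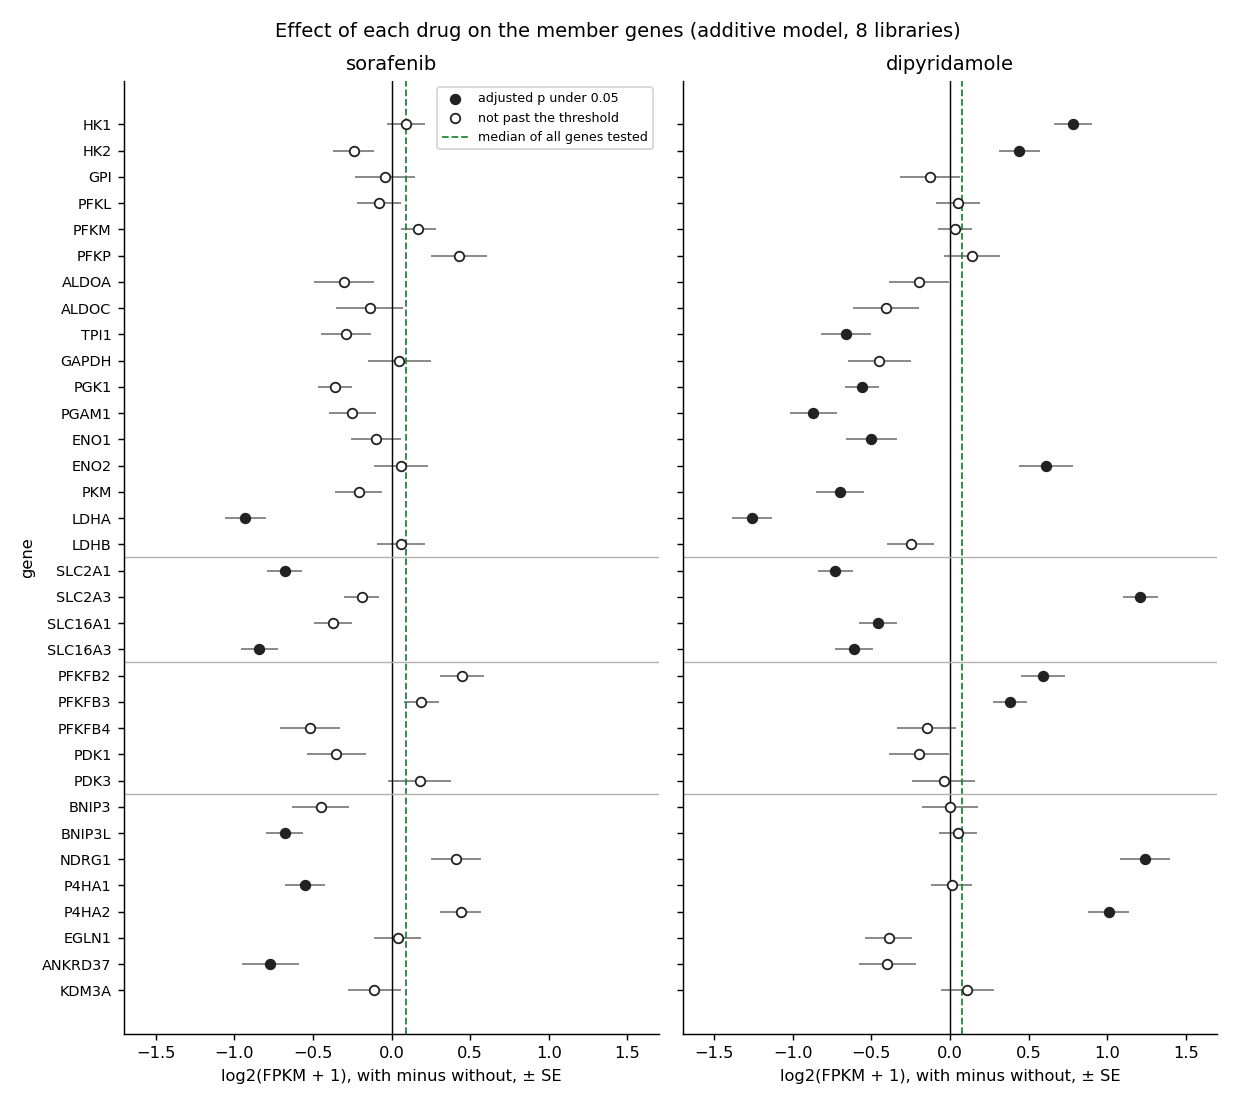
Effect of sorafenib (left) and dipyridamole (right) on each of the 34 tested genes, as the difference in log2(FPKM + 1) with minus without the drug, with its SE from the additive model over 8 libraries. Filled points have a limma adjusted p under 0.05, and the dashed line is the median of all genes tested. The filled points lie only to the left with sorafenib (6 genes), and on both sides with dipyridamole (8 higher, 9 lower).

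Dipyridamole moved more of the genes, and in both directions. Of the 34 tested, 8 rose and 9 fell. This was 50.0% against 30.0% of all genes tested, with 17.5% of all genes higher and 12.6% lower. The median difference was -0.139 against 0.074 over all genes. Of the 17 enzymes 6 fell (TPI1, PGK1, PGAM1, ENO1, PKM and LDHA) and 3 rose (HK1, HK2 and ENO2). Of the 4 transporters 3 fell and 1 rose, of the 5 regulators 2 rose, and of the 8 tested hypoxia genes 2 rose.

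LDHA had the largest decrease of the 34 genes with dipyridamole. With dipyridamole it was read at 656.9 and 647.7 FPKM in control and SLC29A2 cells without sorafenib, against 1437 and 1303 FPKM without either drug. With sorafenib it was read at 292.2 and 306.8 FPKM with dipyridamole and 812.2 and 828.2 without it. The 4 libraries with dipyridamole all lay below the 4 without it, and both drugs together gave the lowest level in each cell type. The effect was -1.26 ± 0.13 (limma adjusted p = 0.000267), or 2.39-fold, with pairs from -1.47 to -1.01.

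PGAM1, the phosphoglycerate mutase of most tissues, was read at 469.1, 321, 181.2 and 166.5 FPKM in control cells (control treatment, sorafenib, dipyridamole, both drugs) and at 372.5, 282.2, 212.4 and 219.8 FPKM in SLC29A2 cells. The dipyridamole libraries lay below all others, by a smaller step in SLC29A2 cells. The effect was -0.87 ± 0.15 (limma adjusted p = 0.0037), and the adjusted p was 0.0553 when the control-cell libraries given dipyridamole were left out. Its 13 processed pseudogenes took reads equal to at most 2.19% of its own, and the counting of reads shared between copies is not stated.

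PKM was read at 2488, 1967, 1317 and 1047 FPKM in control cells and at 2053, 1870, 1416 and 1382 FPKM in SLC29A2 cells, in the same order. The effect was -0.70 ± 0.15 (limma adjusted p = 0.00953). PGK1, the first ATP-making step, was read at 344, 265.1, 210.7 and 163.7 FPKM and at 260.8, 233.6, 223.3 and 153.5 FPKM. For PKM the 4 dipyridamole libraries were the 4 lowest, and for PGK1 they were too. PGK1 fell by 0.56 (SE 0.11; limma adjusted p = 0.00692).

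TPI1, triose phosphate isomerase, fell by 0.66 (SE 0.16; limma adjusted p = 0.0153) and ENO1 fell by 0.50 (SE 0.16; limma adjusted p = 0.0473). TPI1 went from 638.4 to 296 FPKM with dipyridamole in control cells and from 512.4 to 326.9 FPKM in SLC29A2 cells. With sorafenib present it went from 429 to 245.2 FPKM in control cells and from 376 to 352.8 FPKM in SLC29A2 cells, so every pair was lower and the last had the smallest step. Without the control-cell library given both drugs the adjusted p was 0.0578 for TPI1 and 0.158 for ENO1, and the ENO1 call was lost in 7 of 8 such fits. TPI1 also overlaps SPSB2 on the opposite strand (mean 24.8 FPKM).

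The enzymes that rose were 2 hexokinases and 1 enolase. HK1, the hexokinase found in most tissues, was read at 147.9 and 153.1 FPKM without dipyridamole and at 220.4 and 226.5 FPKM with it in control cells, and at 132.5 and 147.3 against 269 and 290.3 FPKM in SLC29A2 cells. The dipyridamole libraries lay above all others, most of all in SLC29A2 cells. The effect was 0.78 ± 0.12 (limma adjusted p = 0.00163), held without any single library (adjusted p at most 0.00892).

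ENO2, the neuron-type enolase, rose by 0.61 ± 0.17 (limma adjusted p = 0.0272) and HK2, the inducible hexokinase, by 0.44 ± 0.13 (limma adjusted p = 0.0354). ENO2 was highest with both drugs, at 111.9 FPKM in control and 89.18 FPKM in SLC29A2 cells, against 46.01 and 52.79 FPKM with sorafenib alone. HK2 was read at 34.43 and 35.48 FPKM with sorafenib alone and between 47.85 and 60.92 FPKM in the other 6 libraries, so its difference lay mainly in the pairs given sorafenib. The ENO2 call was lost in 4 and the HK2 call in 6 of the 8 fits that left out a library, with an adjusted p of up to 0.0909 and 0.124, and HK2 had an adjusted p of 0.0581 with size factors.

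The other 8 enzymes did not pass, namely GPI, PFKL, PFKM, PFKP, ALDOA, ALDOC, GAPDH and LDHB. PFKP, the platelet-type phosphofructokinase, differed by 0.14 ± 0.18 (adjusted p = 0.592) and was highest in SLC29A2 cells given both drugs, at 966.8 FPKM against 425.6 to 633.2 FPKM elsewhere. GAPDH, often taken as a constant reference gene, was read at 2279, 1919, 1118 and 1251 FPKM in control cells and at 2009, 1773, 1523 and 2119 FPKM in SLC29A2 cells. Its highest level was 2.04 times its lowest, and its dipyridamole difference was -0.45 ± 0.20 (adjusted p = 0.13). ALDOA differed by -0.20 ± 0.19 (adjusted p = 0.453) and GPI, glucose phosphate isomerase, by -0.13 ± 0.19 (adjusted p = 0.646).

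**Figure D3:**
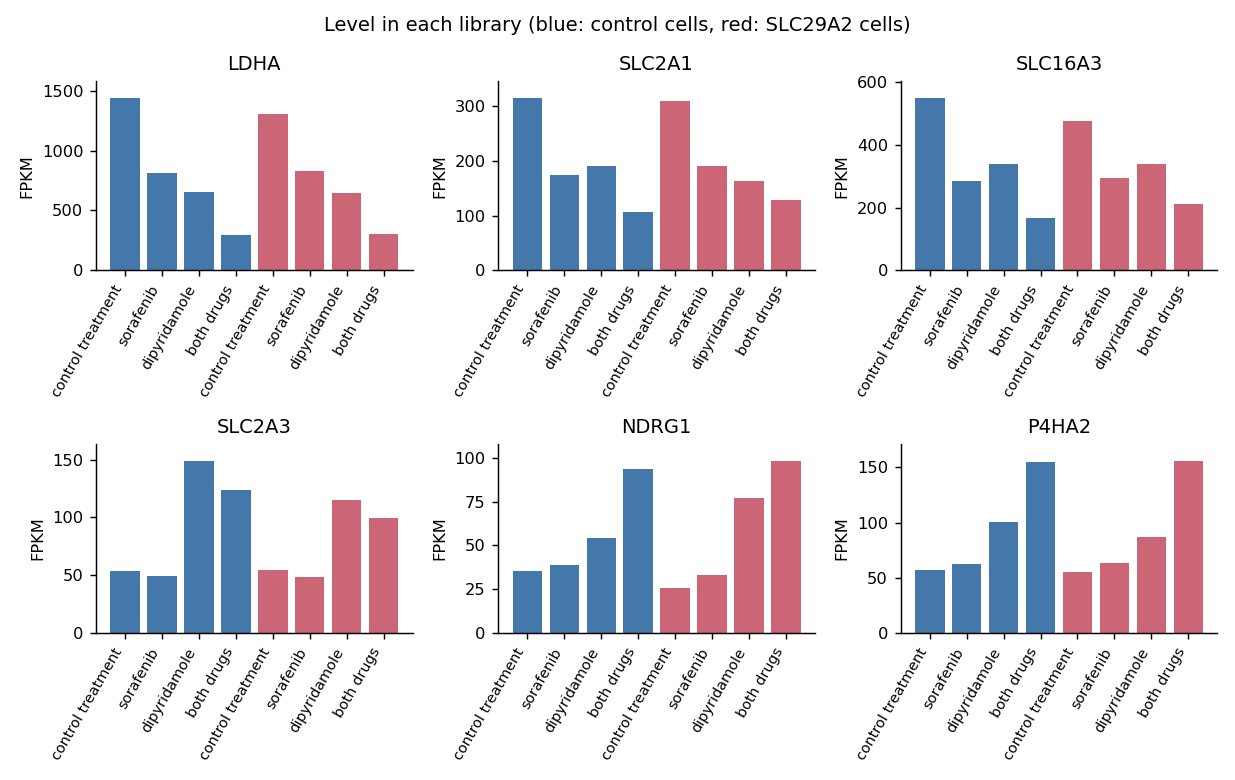
FPKM of LDHA, SLC2A1, SLC16A3, SLC2A3, NDRG1 and P4HA2 in each of the 8 libraries (1 bar per library, no error bars because no condition has a replicate). LDHA goes from 1437 FPKM with the control treatment to 292.2 with both drugs in control cells, and SLC2A3 is above 99 FPKM only in the 4 libraries with dipyridamole.

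The transporters split by gene. SLC2A3 (chromosome 12, 7919230 to 7936275, minus strand), a glucose transporter with high affinity known from neurons, was read at 53.93 and 49.55 FPKM without and at 148.9 and 124.1 FPKM with dipyridamole in control cells. In SLC29A2 cells it was read at 54.64 and 48.53 against 114.7 and 99.47 FPKM. The groups did not overlap, and libraries with and without sorafenib lay close together within each. The effect was 1.21 ± 0.11 (limma adjusted p = 0.000128), or 2.31-fold, the smallest adjusted p of the 34 genes. SLC2A1 fell by 0.73 (SE 0.11; limma adjusted p = 0.00194), SLC16A3 by 0.61 (SE 0.12; adjusted p = 0.00517) and SLC16A1, which carries lactate in either direction, by 0.46 (SE 0.12; adjusted p = 0.0214). SLC16A1 was read at 69.76 and 59.77 FPKM without and with dipyridamole in control cells and at 78.36 and 46.49 FPKM in SLC29A2 cells, and its call was lost in 4 of 8 fits without a library (adjusted p up to 0.0734).

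Among the regulators PFKFB2 and PFKFB3, which make the activator of phosphofructokinase, rose by 0.59 ± 0.14 (limma adjusted p = 0.0151) and 0.38 ± 0.11 (adjusted p = 0.031). PFKFB2 was read at 31.93 to 38.63 FPKM without dipyridamole, at 39.65 and 42.62 FPKM with dipyridamole alone and at 71 and 72.81 FPKM with both drugs. PFKFB3 was read at 40.76 to 44.34 FPKM without dipyridamole and reached 63.01 and 62.73 FPKM with both drugs. Both genes were thus highest where the drugs were combined, by similar amounts in the 2 cell types. PFKFB2 lost its call in 2 of the fits without a library (adjusted p up to 0.0559), and PFKFB3 in 6 (up to 0.114) and with size factors (0.0604). PFKFB4 (-0.15 ± 0.19), PDK1 (-0.20 ± 0.19) and PDK3 (-0.04 ± 0.20) did not pass.

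Of the hypoxia genes NDRG1, a stress-responsive gene raised by HIF and by other signals, was read at 35.38, 38.94, 54.39 and 93.54 FPKM in control cells and at 25.51, 33.27, 76.99 and 98.31 FPKM in SLC29A2 cells. P4HA2, the second collagen prolyl hydroxylase subunit, was read at 56.81, 62.25, 100.7 and 154.8 FPKM and at 55.47, 63.21, 86.97 and 155.9 FPKM. Dipyridamole libraries lay above the rest for both genes, and the combination gave the highest level in each cell type. The effects were 1.24 ± 0.16 (limma adjusted p = 0.00071) and 1.01 ± 0.13 (adjusted p = 0.000839), and both passed without any single library.

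The other 6 tested hypoxia genes did not pass with dipyridamole. EGLN1, the main HIF prolyl hydroxylase, differed by -0.39 ± 0.15 (adjusted p = 0.0763; 0.0483 with size factors) and ANKRD37 by -0.40 ± 0.18 (adjusted p = 0.12). P4HA1 (0.01 ± 0.13), BNIP3 (0.00 ± 0.18), BNIP3L (0.05 ± 0.12) and KDM3A, a histone demethylase (0.11 ± 0.17), lay near 0. The signs of P4HA1, BNIP3L, PFKL and PFKM turned with size factors, and that of BNIP3 with a smaller pseudocount.

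The shares of genes within pairs for the same step shifted. A shift in share does not mean that the levels moved in opposite directions. LDHB averaged 898.7 FPKM without and 765.7 FPKM with dipyridamole, and 814.9 FPKM without and 849.4 FPKM with sorafenib (4 libraries each). LDHA made up 59.8% of the summed FPKM of LDHA and LDHB in control cells with the control treatment, 47.6% with sorafenib, 50.6% with dipyridamole and 30.5% with both drugs. In SLC29A2 cells the shares were 59.9%, 49.1%, 45.4% and 23.9%. LDHA was thus the larger message with the control treatment and the smaller with both drugs, in each cell type.

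SLC2A3 made up 14.6%, 22.2%, 44.0% and 53.7% of SLC2A1 plus SLC2A3 in control cells, and 15.0%, 20.2%, 41.2% and 43.7% in SLC29A2 cells. P4HA1 made up 25.7%, 16.1%, 17.6% and 8.7% of P4HA1 plus P4HA2, and 26.8%, 16.3%, 15.3% and 7.3% in SLC29A2 cells. The P4HA1 share was lower with each drug and lowest with the combination, and the SLC2A3 share ran the other way. ENO2 went from 3.5% to 10.9% of ENO1 plus ENO2 between the control treatment and both drugs in control cells, and from 3.7% to 6.2% in SLC29A2 cells. These shares are single-library values on the FPKM scale and were not tested, and the drug comparisons share their libraries.

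**Figure D4:**
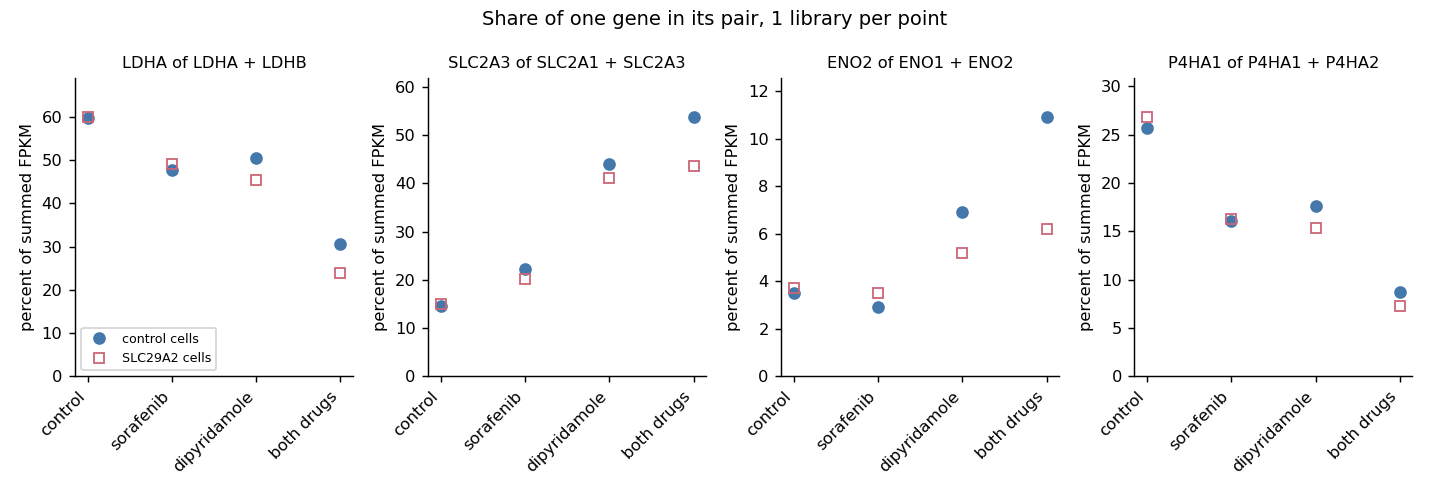
Share of 1 gene in the summed FPKM of its pair, by treatment, with 1 library per point (filled circles, control cells; open squares, SLC29A2 cells). From the control treatment to both drugs the LDHA share goes from 59.8% to 30.5% in control cells and the SLC2A3 share from 14.6% to 53.7%.

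None of the 34 genes passed the test between cell types. Over all genes 0.00719% passed (SLC29A2 itself, 7.93 ± 0.18, limma adjusted p = 8.36e-08), and 0 of the 34 did with limma and 0 with voom. Of the 34, 2 had an unadjusted p under 0.05, against 546 of the 13899 genes tested. Differences ran from -0.47 ± 0.18 for ANKRD37 to 0.23 ± 0.20 for GAPDH, and every adjusted p was at least 0.965. PFKFB4 differed by -0.45 ± 0.19 and was lower in SLC29A2 cells in all 4 pairs. With the control treatment all 17 enzymes were lower in SLC29A2 than in control cells, by a median of -0.21 against 0.00 for all genes, in a single pair of libraries and without a test. With sorafenib 13 of 17 were lower (median -0.11 against -0.01), with dipyridamole 15 of 17 were higher (0.23 against -0.10) and with both drugs 13 of 17 were higher (0.40 against -0.15).

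In control cells 14 of the 17 enzymes were lower with dipyridamole alone, at a median of -0.73 against 0.08 over all genes, whereas in SLC29A2 cells the median was -0.17 against -0.04, with 10 lower. With sorafenib present the medians were -0.40 against 0.19 in control cells and 0.18 against 0.03 in SLC29A2 cells. The enzymes summed to 12464 FPKM with the control treatment and 6447 with both drugs in control cells, and to 10521 and 9230 FPKM in SLC29A2 cells. Their share of all reads went from 1.51% to 0.79% in control cells and from 1.27% to 1.12% in SLC29A2 cells.

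The SLC29A2 by dipyridamole interaction was above 0 for 15 of the 17 enzymes, with a median of 0.513 against -0.139 over all genes, and with size factors the median was 0.660 against -0.007. None passed with limma, and no gene of the 13899 did (0% called). At an unadjusted p under 0.05 there were 10 of the 17 and 12 of the 34, against 2756 of the 13899 genes tested. Among the 34 the smallest adjusted p-values were those of GPI (0.88 ± 0.23, limma adjusted p = 0.138) and PFKL, the liver-type phosphofructokinase (0.59 ± 0.17, 0.145). GPI went from 245.9 to 147.9 FPKM with dipyridamole in control cells and from 192.5 to 203.5 FPKM in SLC29A2 cells. With sorafenib present it went from 192.5 to 145.5 and from 175.9 to 256.9 FPKM. LDHA, in contrast, had nearly the same steps in both cell types (-1.13 and -1.01 without sorafenib, -1.47 and -1.43 with it). The control-cell libraries given dipyridamole are also those with the higher share of non-coding reads, and the part of that composition in the enzyme values was not tested. Without those libraries the dipyridamole effect comes from SLC29A2 cells alone, and 8 of the 17 calls held, namely LDHA, SLC2A1, SLC16A3, SLC16A1, SLC2A3, NDRG1, P4HA2 and HK1.

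The SLC29A2 by sorafenib interaction passed for 0 of the 34 genes and for 0% of all genes. None of the 34 had an unadjusted p under 0.05, against 100 of the 13899 genes tested. Values ran from -0.24 to 0.32, with an adjusted p of 1 for every one of the 34.

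**Figure D5:**
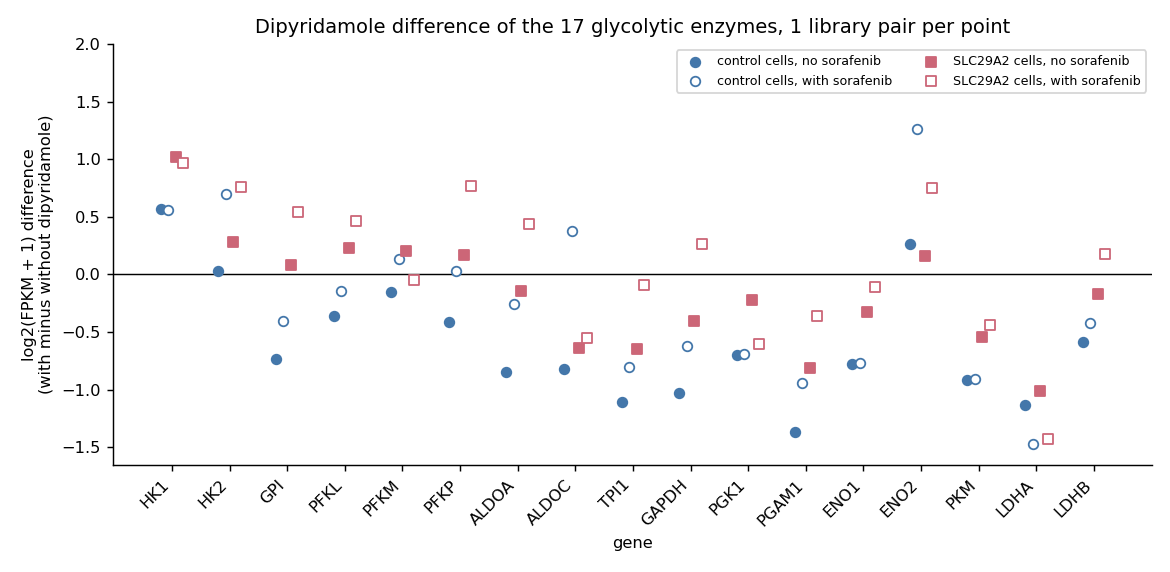
Difference in log2(FPKM + 1), with minus without dipyridamole, for each of the 17 glycolytic enzymes in 4 pairs of libraries (circles, control cells; squares, SLC29A2 cells; open symbols, sorafenib present in both libraries of the pair). For GPI, GAPDH and most neighbours the circles lie below the squares, whereas for LDHA all 4 symbols lie between -1.47 and -1.01.

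Other genes of the same pathways were counted for context, in 8 lists with 98 genes, of which 78 were tested. Sorafenib raised 4 and lowered 2 of them, and dipyridamole raised 17 and lowered 12. These were 5.1% higher and 2.6% lower with sorafenib, against 5.94% and 2.17% of all genes tested, and 21.8% and 15.4% with dipyridamole, against 17.5% and 12.6%. Dipyridamole raised 2 and lowered 1 of 9 HIF subunit and oxygen sensing genes, raised 7 and lowered 4 of 26 further HIF targets, raised 2 of 7 other glycolytic isozymes, and raised 2 and lowered 4 of 11 genes of pyruvate entry into mitochondria. It raised 1 of 8 genes of gluconeogenesis and glycogen, raised 1 and lowered 1 of 7 of the pentose phosphate pathway, raised 2 and lowered 1 of 6 other glucose and lactate transport genes, and lowered 1 of 4 glucose-responsive MondoA and ChREBP genes.

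EPAS1, the second HIF alpha subunit (HIF-2 alpha), was read at 10.37, 19.49, 50.32 and 85.56 FPKM in control cells and at 9.446, 13.37, 40.08 and 70.81 FPKM in SLC29A2 cells. It rose with dipyridamole (2.14 ± 0.11, limma adjusted p = 1.54e-05) and with sorafenib (0.72 ± 0.11, 0.00778), whereas HIF1A did not pass with dipyridamole (0.01 ± 0.15, 0.953). EPAS1 made up 7.1% of the summed FPKM of both subunits with the control treatment and 37.4% with both drugs in control cells, and 6.8% and 40.4% in SLC29A2 cells. Among the HIF targets the lipase inhibitor ANGPTL4 fell with sorafenib (-2.47 ± 0.13, limma adjusted p = 0.000222), from 79.23 to 15.52 FPKM in control cells and from 77.56 to 17.29 FPKM in SLC29A2 cells. BHLHE41, a transcriptional repressor, rose with dipyridamole (1.41 ± 0.28, limma adjusted p = 0.00578), from 0.03885 to 2.028 FPKM in control cells and from 0.1265 to 0.6008 FPKM in SLC29A2 cells. The value of 0.03885 FPKM lies near the worth of 1 read in a transcript of 2 kb (0.03 FPKM in that library). The secreted glycoprotein STC2 rose with sorafenib (0.57 ± 0.15, limma adjusted p = 0.0479).

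HKDC1, a further hexokinase, was read at 6.502, 16.11, 22.36 and 62.88 FPKM in control cells and at 5.78, 14.39, 29.61 and 89.24 FPKM in SLC29A2 cells. It rose with each drug (sorafenib 1.35 ± 0.15, limma adjusted p = 0.00293; dipyridamole 2.07 ± 0.15, 5.56e-05). Its share of the summed FPKM of HK1, HK2 and HKDC1 went from 3.1% with the control treatment to 18.2% and 20.3% with both drugs in control and SLC29A2 cells. PCK2, the mitochondrial enzyme making phosphoenolpyruvate, rose with sorafenib (1.25 ± 0.30, limma adjusted p = 0.0399) and dipyridamole (1.44 ± 0.30, 0.00762). These effects are averages over the other drug. The sorafenib by dipyridamole interaction of PCK2 was -1.53 ± 0.35 and did not pass (limma adjusted p = 0.218). With dipyridamole TXNIP, a glucose-responsive inhibitor of glucose uptake, fell by 0.98 (SE 0.22, limma adjusted p = 0.0111), ARNT2, a HIF partner subunit, fell by 0.82 (SE 0.17, 0.0075) and PC, pyruvate carboxylase, fell by 0.62 (SE 0.11, 0.00288).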

How the data were processed

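Poly(A)-selected RNA of SK-Hep1 cells was sequenced as 8 libraries, 1 for each combination of cell type, sorafenib and dipyridamole. The deposited values are FPKM, 1 table per library. Per the submitters' processing notes, the build was GRCh38.p12, and the tools named are HTSeq 0.6.1, TopHat2 2.0 and edgeR, without a role for each. The treatment of reads with several matches and strand is not given in the sources used here. Further overlaps on the opposite strand were BNIP3L with PNMA2 (mean 14.77 FPKM), SLC16A1 with SLC16A1-AS1 (8.313), PFKFB2 with YOD1 (7.673) and HK2 with AC019069.1 (2.176). PFKM overlapped SENP1 (12.47) and BNIP3L also SDAD1P1 (1.873) in the same way, and PGK1 overlapped ATP7A on the same strand (3.198). Of 58310 lines per table, 8 held no gene identifier and stayed out. Of the 58302 genes, 58039 were matched to GENCODE release 29 (GRCh38) for symbols and positions. FPKM multiplied by a gene's rounded mean transcript length was a whole multiple of a library-specific step for 93.5% to 93.7% of values (tolerance 0.01), so the length is an average over transcripts and levels of different genes compare only roughly. Reads recovered that way were whole in all libraries for 28 of the 36 genes.

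Effects were fitted with limma 3.58.1 (R 4.3.3) on log2(FPKM + 1) for genes averaging 1 FPKM or more, with a variance trend. Tests were two-sided and adjusted after Benjamini and Hochberg, at 0.05. The 3 factors entered additively, and interactions were added 1 at a time. The spread therefore includes any interaction left out of the model. The script was tested on simulated data. Alternatives were a pseudocount of 0.1, no filter, a mean of at least 5 FPKM, median-ratio size factors, no variance trend, all pairwise interactions, voom on recovered reads (main effects only), each library left out, both dipyridamole-treated control-cell libraries left out and, chosen after seeing the data, the library pairs as a block. The genes described and all lists were chosen with earlier results of these data known, so their counts are descriptions. Named are all 36 genes, SLC29A2 and, from the other lists together, up to 4 of the largest called changes in each direction of a main effect.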

Additional observations from a re-analysis of the deposited data

Results flagged for a closer look

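ADM, the gene of the vasodilator peptide adrenomedullin and a known HIF target outside the 36 genes, is set apart because its response to 1 drug differed with the other drug, by a test of the difference itself. It was read at 285.7, 224.7, 273.4 and 48.18 FPKM in control cells (control treatment, sorafenib, dipyridamole, both drugs) and at 318.4, 246.3, 236.8 and 37.32 FPKM in SLC29A2 cells. Either drug alone left it above 220 FPKM, and both together brought it below 50 FPKM, in each cell type. The sorafenib by dipyridamole interaction was -2.20 on the log2(FPKM + 1) scale (limma adjusted p = 0.046). The call was lost with a pseudocount of 0.1 (limma adjusted p = 0.0632), with no filter on low genes (0.215) and with no variance trend (0.111), and was kept with a mean of at least 5 FPKM (0.0425) and with size factors (0.0207). Among the effects averaged over the other drug it fell with sorafenib (-1.46 ± 0.38, limma adjusted p = 0.0498) and with dipyridamole (-1.34 ± 0.38, adjusted p = 0.0276), calls that were both lost with no filter on low genes (adjusted p = 0.198 and 0.123). The sorafenib call was also lost with a pseudocount of 0.1 (0.053), size factors (0.0505), no variance trend (0.0718) and library pairs as a block (0.0581). It was kept with a mean of at least 5 FPKM (0.0433), all pairwise interactions and voom (0.0199). The dipyridamole call was kept in each of these settings. With a library left out, the sorafenib call was lost in most fits (up to 0.171) and the dipyridamole call in several (up to 0.0949). Of the 36 genes, none of the 34 tested passed an interaction test, and CA9 and EGLN3 were not tested.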

How the results depend on the processing

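No paired analysis was possible by replicate number, because each condition has 1 library. With the 4 library pairs of each effect as a block, an alternative chosen after seeing the data, 8 genes passed as lower and 0 as higher with sorafenib, 8 as lower and 6 as higher with dipyridamole and 0 between cell types. Over all 13899 genes that fit called 551 lower and 1392 higher with sorafenib, and 1381 lower and 1901 higher with dipyridamole. The 6 sorafenib calls and 14 of the 17 dipyridamole calls were kept, without HK2 (limma adjusted p = 0.0618), ENO1 (0.0744) and PFKFB3 (0.0633). The 6 decreases with sorafenib became 1 when low genes were kept, 15 when every pairwise interaction was modelled (1 residual degree of freedom), and 3 when both control-cell libraries given dipyridamole were left out. They ranged from 3 to 5 when a library was left out. The count of increases with sorafenib, 0, became 4 with all pairwise interactions. Over all 13899 genes the decreases with sorafenib were 302 in the main fit, 1426 with all pairwise interactions and 94 without those control-cell libraries. They were 38 of 31551 genes when low genes were kept, and 80 to 311 of 13899 when a library was left out. The increases over all genes were 825 in the main fit and 3413 with all pairwise interactions. The 8 increases with dipyridamole became 4 when low genes were kept and 4 with those libraries left out, and ranged from 4 to 8 with a library left out. The 9 decreases became 5 when low genes were kept and 4 without those libraries, and ranged from 6 to 11. Over all 13899 genes the increases with dipyridamole were 2428 in the main fit, 1516 without those libraries and 1563 to 2138 with a library left out. The decreases over all genes were 1745, 1652 and 1195 to 1503 in the same order. When low genes were kept, 1460 of 31551 genes were higher and 1162 lower with dipyridamole. No called gene changed sign under any of these settings. The 6 sorafenib calls were all kept with a pseudocount of 0.1, size factors, no variance trend and voom. The 17 dipyridamole calls were all kept with a pseudocount of 0.1, a mean of at least 5 FPKM and voom, 14 were kept with size factors and 15 with no variance trend. Size factors moved the share of higher calls over all genes from 73.2% to 50.4% for sorafenib and from 58.2% to 48.5% for dipyridamole. They moved the median of all genes from 0.105 to 0.002 for the sorafenib by dipyridamole interaction and from -0.139 to -0.007 for the SLC29A2 by dipyridamole interaction. The cause of these differences was not tested. At this depth 1 read limits CA9, EGLN3 and genes with few reads such as PDK3, ALDOC and ANKRD37, the last of which was called lower with sorafenib.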
